A study of Mus musculus with 12 samples.

Results

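The 34 genes described here encode the enzymes, carriers and electron acceptors of fatty acid oxidation. They were chosen by symbol, and all 34 were found among the 35791 genes that the count files hold. By the known location of their products, 18 are mitochondrial, 10 are peroxisomal and 6 act in both organelles or elsewhere in the cell. All 34 passed the filter on low counts, which kept 13154 genes.

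The libraries are bulk RNA-seq of small bowel from male C57BL/6 mice, aged 8 to 10 weeks at the start, that underwent ileocecal resection, the removal of the end of the ileum and the cecum. One arm was supplemented with the milk sugar 2'-fucosyllactose (2'-FL) at 2.5 g per L from day 0, the day of surgery, and the control arm received none. The 4 groups of 3 libraries each are Post 2'-FL and Post control, from bowel 8 weeks after resection, and Pre 2'-FL and Pre control, labelled as taken before resection. All mice were given liquid diet at day 7 and then chow, so surgery, the 8 weeks that followed and the diet cannot be told apart. Per the extraction protocol every bowel was taken 8 weeks after surgery, yet 6 libraries carry a pre-resection label, and the Pre 2'-FL libraries are labelled as supplemented although supplementation began on the day of surgery. The bowel segment and the hour of collection are not given in the sources used here. Neither is whether a Pre and a Post library came from the same mouse, so p-values measure the spread between these libraries.

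Library totals ranged from 5663192 to 9385097 counts. Transcripts of 12 of 12 enterocyte markers, among them Vil1, Fabp2 and Sis, had counts in every library. The deviation of a gene from its mean over the 12 libraries followed transcript length across genes, with a rank correlation in each library of 0.26 to 0.50 in the 6 Pre libraries, of -0.03, -0.21 and 0.35 in Post control and of -0.44, -0.56 and -0.60 in Post 2'-FL. Short transcripts were therefore relatively high in Post 2'-FL libraries, and most calls and counts from the test are followed by their value after a correction for transcript length and GC content, called the corrected value. Values in CPM and their sums are not corrected.

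Mitochondria oxidise most long-chain and medium-chain fatty acids. An acyl-CoA synthetase activates the fatty acid, the carnitine shuttle (Cpt1a, Slc25a20, Cpt2) carries the acyl group across the inner membrane, and a cycle of dehydrogenation, hydration, a further dehydrogenation and thiolysis shortens the chain. Electrons from the acyl-CoA dehydrogenases pass through the electron transfer flavoprotein (Etfa, Etfb) and its oxidoreductase (Etfdh) to ubiquinone. Peroxisomes shorten very long and branched chains by a parallel set of enzymes and hand the products to mitochondria as carnitine esters or free acids. Enterocytes take up dietary fat and use both routes beside packing fat into chylomicrons, and the nuclear receptor PPARα, which binds AGGTCA-like repeats, is a known activator of many of these genes.

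Levels per kilobase of transcript, averaged over the 12 libraries, ranged from 432 CPM (counts scaled to a common library size) per kb for Scp2, the sterol carrier protein with a peroxisomal thiolase form, and 421 CPM per kb for Hadh, the mitochondrial hydroxyacyl-CoA dehydrogenase, to 1.38 CPM per kb for the acyl-CoA synthetase Acsl4. Etfb, Etfa and Acaa1a, a peroxisomal thiolase, were the other members above 100 CPM per kb, and 24 of the 34 lay between 10 and 100. Acsl3, Pex11a, Acot4, Acadsb and Acsl4 lay under 10. The 2 most abundant members made up a large share of their class. Scp2 gave 49.8 to 60.4% of the peroxisomal sum and Hadh 25.1 to 32.6% of the mitochondrial sum over the 12 libraries.

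Promoter windows (250 bases before to 50 after the start; RefSeq, GRCm38.p6) were at hand for 29 members. The PPAR response element, 2 copies of AGGTCA in a row with 1 free base between them, was searched on both strands. It was in 0 of the 29 and in 0.0396% of all 32851 windows, and a looser form that includes it, with any base at the fourth position of each copy, was in 0 of the 29 and in 0.381% of all. The single hexamer AGGTCA, the copy in the strict form, was in 6 of 29 (Acadm, Acadvl, Acot12, Acot4, Echs1 and Scp2) and in 16.3% of all windows. A match is a string of letters only, and the windows hold no distal elements. Shown first are the 5 members whose transcript was higher after resection in both arms, with AGGTCA or its reverse complement TGACCT in capitals: Acadm (chr3:153944594-153944893, minus strand), Crot (chr5:8997097-8997396, minus strand), Slc25a20 (chr9:108661886-108662185, plus strand), Ehhadh (chr16:21787785-21788084, minus strand) and Decr2 (chr17:26090115-26090414, minus strand). Among these windows only that of Acadm holds the hexamer.
Acadm: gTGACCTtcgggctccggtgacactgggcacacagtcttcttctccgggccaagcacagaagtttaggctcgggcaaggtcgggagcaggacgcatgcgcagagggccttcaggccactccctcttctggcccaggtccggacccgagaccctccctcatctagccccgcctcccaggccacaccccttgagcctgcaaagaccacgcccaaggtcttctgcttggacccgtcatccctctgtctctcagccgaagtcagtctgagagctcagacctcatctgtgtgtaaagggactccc
Crot: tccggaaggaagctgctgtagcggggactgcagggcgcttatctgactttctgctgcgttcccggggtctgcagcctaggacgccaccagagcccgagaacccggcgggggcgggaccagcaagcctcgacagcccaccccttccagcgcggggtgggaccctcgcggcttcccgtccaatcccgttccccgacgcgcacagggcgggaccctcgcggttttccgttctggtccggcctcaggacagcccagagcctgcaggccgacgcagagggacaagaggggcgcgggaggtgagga
Slc25a20: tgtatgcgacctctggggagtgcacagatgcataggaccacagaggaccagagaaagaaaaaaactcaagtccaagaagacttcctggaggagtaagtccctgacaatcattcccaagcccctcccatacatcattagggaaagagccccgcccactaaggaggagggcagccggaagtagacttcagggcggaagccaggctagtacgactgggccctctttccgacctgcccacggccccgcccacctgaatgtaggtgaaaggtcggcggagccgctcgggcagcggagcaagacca
Ehhadh: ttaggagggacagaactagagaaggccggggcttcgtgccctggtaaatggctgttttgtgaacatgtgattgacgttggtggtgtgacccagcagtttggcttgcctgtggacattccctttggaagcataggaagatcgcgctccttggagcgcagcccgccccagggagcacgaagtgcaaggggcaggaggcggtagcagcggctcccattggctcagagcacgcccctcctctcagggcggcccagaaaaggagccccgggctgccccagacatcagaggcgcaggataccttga
Decr2: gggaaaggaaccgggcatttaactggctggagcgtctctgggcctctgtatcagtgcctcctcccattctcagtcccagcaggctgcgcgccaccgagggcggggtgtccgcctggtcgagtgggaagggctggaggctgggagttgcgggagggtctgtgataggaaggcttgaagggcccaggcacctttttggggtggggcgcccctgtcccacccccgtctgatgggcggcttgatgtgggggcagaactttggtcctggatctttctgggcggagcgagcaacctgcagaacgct

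Hadha and Hadhb, the 2 subunits of the mitochondrial trifunctional protein, start 273 bases apart on opposite strands of chromosome 5. Their windows share 228 bases, in capitals in the Hadhb window (chr5:30155003-30155302, plus strand), which is shown because the ratio of the 2 transcripts is described among the results.
Hadhb: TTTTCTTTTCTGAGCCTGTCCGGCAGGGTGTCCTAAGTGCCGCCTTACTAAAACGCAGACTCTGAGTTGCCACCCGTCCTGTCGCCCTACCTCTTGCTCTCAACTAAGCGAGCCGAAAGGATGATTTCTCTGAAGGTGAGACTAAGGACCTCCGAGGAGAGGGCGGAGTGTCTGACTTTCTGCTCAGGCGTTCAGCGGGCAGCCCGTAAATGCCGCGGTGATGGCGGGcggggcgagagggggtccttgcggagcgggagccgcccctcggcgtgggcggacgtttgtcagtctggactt

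In the 2'-FL arm, 21 of 34 members rose after resection and 1, Hadha, fell, in Post 2'-FL against Pre 2'-FL libraries (edgeR's quasi-likelihood test, adjusted p under 0.05). Among all genes tested, 25.3% were higher and 30.0% lower, 55.3% in either direction. Mitochondrial members gave 12 higher and 1 lower of 18, with a median log2 change of 0.70. Peroxisomal members gave 7 higher and 0 lower of 10, with a median of 0.90, and the remaining 6 gave 2 higher and 0 lower, with a median of 0.06. Over all genes the median was -0.13. Bulk RNA cannot tell more cells of a type from more RNA per cell. The summed level of the 12 enterocyte markers was 67957 to 71966 CPM in Post 2'-FL, against 20551 to 40181 CPM in Pre 2'-FL, with 2 of 12 markers called higher and 2 lower (2 and 0 corrected) and a median log2 change of 0.16. Fabp2, an enterocyte fatty acid binding protein, gave 42429.7, 33590.3 and 34874 CPM of this sum in Post 2'-FL, against 7891, 4409 and 3019.7 CPM in Pre 2'-FL. The part of these markers in the result was not tested.

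**Figure D1:**
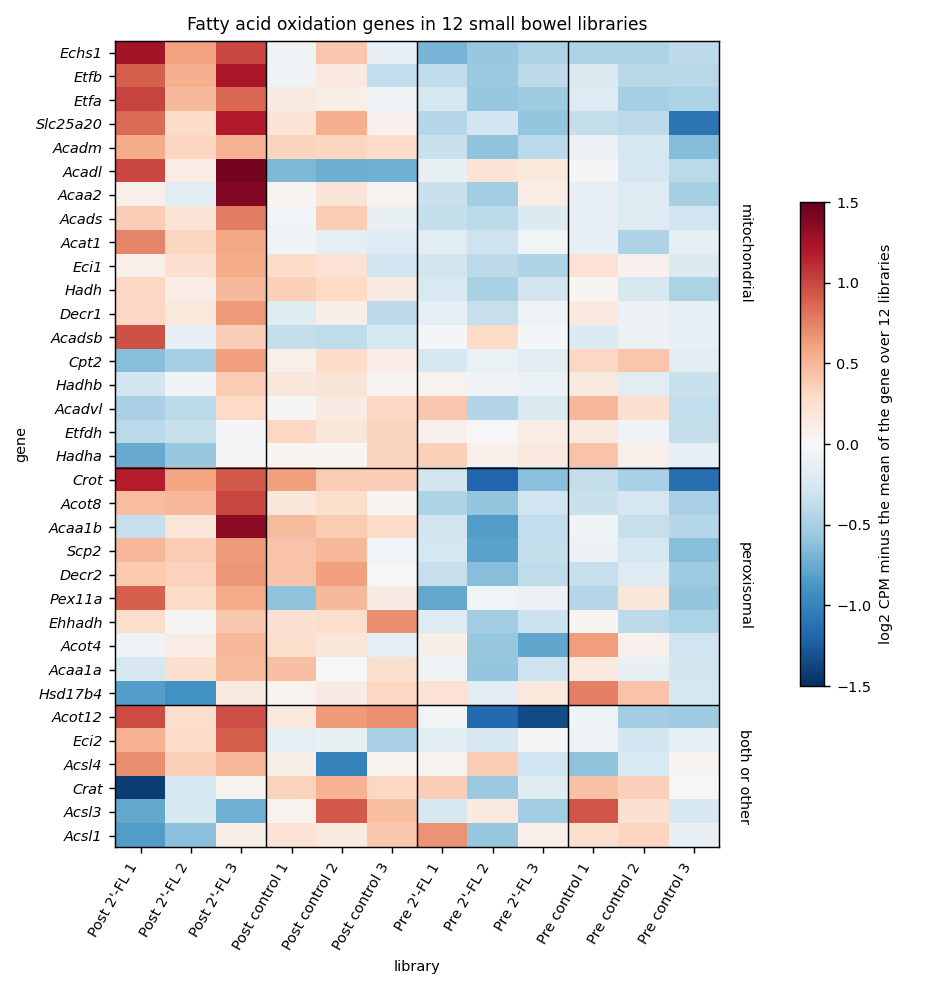
Level of each of the 34 genes (rows, by class) in each of the 12 libraries (columns, by group), as log2 CPM minus the gene's mean over the 12 libraries. In the Post 2'-FL columns most rows are above their mean, while Cpt2, Acadvl, Hadha, Hadhb, Etfdh, Hsd17b4, Acsl1, Acsl3 and Crat are below it in replicates 1 and 2.

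Within the carnitine shuttle, Slc25a20, the acylcarnitine carrier of the inner membrane, had 127, 84.6 and 160.2 CPM in Post 2'-FL, 81.1, 103 and 73.6 CPM in Post control, 51.98, 57.2 and 46.9 CPM in Pre 2'-FL and 54.6, 53.3 and 32.5 CPM in Pre control. Each Post 2'-FL library was above each Pre 2'-FL library, and the log2 change was 1.25 ± 0.25 (SE; adjusted p = 0.000937), or 0.79 corrected. Cpt2, which rebuilds acyl-CoA in the matrix, had 49.4, 54.4 and 118 CPM in Post 2'-FL, 81.1, 92.9 and 82.9 CPM in Post control, 65.00, 71.7 and 69.02 CPM in Pre 2'-FL and 95.7, 103 and 68.3 CPM in Pre control. Its Post 2'-FL libraries spread over both sides of the Pre 2'-FL range, and the change of 0.11 ± 0.28 (SE; adjusted p = 0.755) did not pass the test, nor did the corrected change of 0.19.

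Among the acyl-CoA dehydrogenases, which open the cycle, Acadm (medium-chain) had 226, 191 and 221 CPM in Post 2'-FL, 193, 192 and 185 CPM in Post control, 121, 100.5 and 116 CPM in Pre 2'-FL and 144, 128 and 97.4 CPM in Pre control. All 3 Post 2'-FL values exceeded all Pre 2'-FL values, by 0.92 ± 0.18 (SE; adjusted p = 0.000775) on the log2 scale, and by 0.51 corrected (adjusted p = 0.0339). Acads (short-chain) rose by 0.79 and Acadl (long-chain) by 0.86 on the log2 scale. Corrected, Acads kept its call at 0.95 and Acadl did not at 0.12. Acadvl (very-long-chain) had a change of -0.11 ± 0.28 (SE; adjusted p = 0.74), or -0.09 corrected and not called, and 42.9% of its exon sequence overlaps Dvl2 on the opposite strand. Acadsb, the dehydrogenase of short branched chains, was not called as counted at 0.38 but was called higher corrected at 0.85 (adjusted p = 0.00718).

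Echs1, the short-chain enoyl-CoA hydratase of the second step, had 273, 174 and 230.1 CPM in Post 2'-FL, 109.6, 153 and 106 CPM in Post control, 70.5, 77.5 and 82.4 CPM in Pre 2'-FL and 82.4, 82.9 and 87.7 CPM in Pre control. All Post 2'-FL libraries were above all other libraries, and the log2 change was 1.56 ± 0.20 (SE; adjusted p = 5.98e-05), or 0.96 corrected (adjusted p = 0.000662). Hadh had 909, 785 and 1032 CPM in Post 2'-FL, 943, 901 and 804 CPM in Post control, 625, 524 and 607 CPM in Pre 2'-FL and 747, 623 and 529 CPM in Pre control. It rose by 0.63 ± 0.20 (SE; adjusted p = 0.0167), and corrected the change was 0.22 and not called. Of the thiolases, Acat1, which cleaves acetoacetyl-CoA, rose by 0.72 and kept its call corrected at 0.84, whereas Acaa2, the main thiolase of the matrix, rose by 0.84 with a corrected 0.33 that was not called. Eci1 and Decr1, auxiliary enzymes for unsaturated chains, rose by 0.69 and 0.57, and corrected neither was called (-0.03 and 0.42).

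The trifunctional protein subunits, are named here after their values were seen, and the difference between them was not tested. Hadha had 105, 120.0 and 174 CPM in Post 2'-FL, 181, 180.4 and 223 CPM in Post control, 227, 187 and 196 CPM in Pre 2'-FL and 239, 186 and 162 CPM in Pre control. Hadhb had 152, 179 and 243 CPM in Post 2'-FL, 209.8, 212 and 191 CPM in Post control, 193, 179.7 and 175 CPM in Pre 2'-FL and 204, 166 and 147 CPM in Pre control. The ratio of Hadhb to Hadha was 1.45, 1.49 and 1.39 in Post 2'-FL, 1.16, 1.18 and 0.858 in Post control, 0.847, 0.959 and 0.8897 in Pre 2'-FL and 0.852, 0.891 and 0.906 in Pre control. The Hadha transcript is 4017 nt long and that of Hadhb 2048 nt. As counted, Hadha changed by -0.61 ± 0.22 (SE; adjusted p = 0.027) on the log2 scale and Hadhb had 0.07 ± 0.20 (SE; adjusted p = 0.778). Corrected, the values were 0.12 for Hadha and -0.52 for Hadhb, neither called, so the order of the subunits turned with the correction. The Hadha call was also lost without Pre 2'-FL replicate 1 or 3, Post control replicate 1 or 3, or Post 2'-FL replicate 1 or 2 (adjusted p of 0.0503 to 0.139).

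The electron acceptors are given next, Etfdh having been chosen after its values were seen. Etfb had 231, 179 and 291 CPM in Post 2'-FL, 119.6, 137 and 96.4 CPM in Post control, 95.3, 84.4 and 94.9 CPM in Pre 2'-FL and 107, 92.9 and 92.8 CPM in Pre control, with no overlap between Post 2'-FL and Pre 2'-FL libraries. It rose by 1.35 ± 0.20 (SE; adjusted p = 0.000124), or 0.63 corrected (adjusted p = 0.00905). Etfa had 367, 253 and 329 CPM in Post 2'-FL, 199, 193 and 172 CPM in Post control, 151, 122 and 126 CPM in Pre 2'-FL and 159, 129 and 131 CPM in Pre control, and its 3 Post 2'-FL libraries were the highest of the 12. As counted Etfa rose by 1.25 ± 0.19 (SE; adjusted p = 0.000129), but the corrected change was 0.12 (adjusted p = 0.582). Etfdh, which accepts their electrons, had 71.1, 74.6 and 92.2 CPM in Post 2'-FL, 116, 107 and 119 CPM in Post control, 98.8, 94.2 and 101 CPM in Pre 2'-FL and 104, 90.2 and 73.1 CPM in Pre control. Its Post 2'-FL libraries were all below the Pre 2'-FL libraries, with a change of -0.31 ± 0.17 (SE; adjusted p = 0.146) as counted, not called, and of -0.56 corrected (adjusted p = 0.0235), the 1 lower call of the corrected fit. Etfb over Etfdh was 3.25, 2.41 and 3.16 in Post 2'-FL, 1.03, 1.29 and 0.813 in Post control, 0.965, 0.896 and 0.937 in Pre 2'-FL and 1.03, 1.03 and 1.27 in Pre control. The transcripts are 893 nt (Etfb), 1392 nt (Etfa) and 2377 nt (Etfdh) long. Another gene, Gm45233, covers 53.0% of Etfb's exon sequence on the same strand. The count files hold no entry under that symbol, so reads of the shared part may have been counted with Etfb.

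In peroxisomes, Crot, which makes carnitine esters of shortened chains for export, had 479, 319 and 399 CPM in Post 2'-FL, 323, 276 and 274 CPM in Post control, 174, 92.2 and 136 CPM in Pre 2'-FL and 164, 151 and 95.99 CPM in Pre control. Both Post groups lay above every Pre library, and in the 2'-FL arm the log2 change was 1.57 ± 0.26 (SE; adjusted p = 0.000253), or 1.38 corrected (adjusted p = 0.00112). Scp2 had 1533, 1417 and 1691 CPM in Post 2'-FL, 1463, 1538 and 1055 CPM in Post control, 901, 623 and 846 CPM in Pre 2'-FL and 1019, 902 and 695 CPM in Pre control. It too was higher in all 3 Post 2'-FL than in all Pre 2'-FL libraries, by 0.97 ± 0.24 (SE; adjusted p = 0.00353), or 0.68 corrected. Decr2, the reductase for unsaturated chains, had 83.4, 80.3 and 100.2 CPM in Post 2'-FL, 85.4, 96.96 and 62.9 CPM in Post control, 49.8, 40.6 and 48.4 CPM in Pre 2'-FL and 49.8, 55.4 and 43.8 CPM in Pre control, and rose by 0.93 ± 0.19 (SE; adjusted p = 0.00117), or 0.75 corrected. Acot8, a thioesterase that frees the products as acids, had 34.4, 35.4 and 50.2 CPM in Post 2'-FL, 28.2, 29.9 and 25.7 CPM in Post control, 17.97, 16.5 and 20.3 CPM in Pre 2'-FL and 19.8, 20.9 and 17.7 CPM in Pre control. It rose by 1.13 ± 0.19 (SE; adjusted p = 0.000262), or 0.65 corrected, with groups that did not overlap. Of the Acot8 transcript, 21.2% is shared with Snx21 on the opposite strand, which had 49 to 96 counts per library, against 106 to 270. As the strand setting is not given, reads of the shared part could be counted with either.

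Ehhadh and Hsd17b4 are the L- and D-bifunctional enzymes, each able to carry out the hydration and the dehydrogenation that follow peroxisomal acyl-CoA oxidase. Ehhadh had 126, 106 and 138 CPM in Post 2'-FL, 123, 126 and 170.1 CPM in Post control, 91.2, 72.7 and 83.9 CPM in Pre 2'-FL and 107, 79.8 and 75.6 CPM in Pre control, and rose by 0.58 ± 0.20 (SE; adjusted p = 0.0232), or 0.65 corrected (adjusted p = 0.0181). Hsd17b4 had 88.9, 84.1 and 174 CPM in Post 2'-FL, 164, 172 and 197 CPM in Post control, 185, 141 and 177 CPM in Pre 2'-FL and 267, 213 and 132 CPM in Pre control. It was the 1 peroxisomal member with a change below 0, -0.54 ± 0.29 (SE; adjusted p = 0.128), which did not pass the test as counted or corrected (-0.46). The thiolases Acaa1a and Acaa1b share sequence, with 49.4% of the Acaa1b transcript matching Acaa1a at 98% identity or more, so reads may have been split between them and both are uncertain. Scp2 and Hadhb share sequence with Scp2-ps2 and Gm13910, which had 0 counts in every library. Acaa1a had 175, 244 and 287 CPM in Post 2'-FL, 283, 208 and 243 CPM in Post control, 199, 139 and 167 CPM in Pre 2'-FL and 229, 192 and 171 CPM in Pre control. Acaa1b had 38.6, 55.5 and 125 CPM in Post 2'-FL, 68.2, 63.7 and 59.9 CPM in Post control, 39.9, 27.3 and 37.9 CPM in Pre 2'-FL and 46.6, 38.3 and 36.4 CPM in Pre control. Acaa1b was called at 1.05 ± 0.33 (SE; adjusted p = 0.0134), or 0.96 corrected and called, and Acaa1a, at 0.48 ± 0.22 (SE; adjusted p = 0.0769), or 0.51 corrected, was not.

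Pex11a, a membrane protein of peroxisome division, had 23.6, 15.2 and 18.6 CPM in Post 2'-FL, 8.16, 17.7 and 13.7 CPM in Post control, 7.24, 12.2 and 11.8 CPM in Pre 2'-FL and 9.27, 14.2 and 8.31 CPM in Pre control. It rose by 0.88 ± 0.31 (SE; adjusted p = 0.0269), a call lost when corrected (0.72, adjusted p = 0.0771). Acot4, a thioesterase, had 16.6, 18.8 and 24.5 CPM in Post 2'-FL, 20.9, 19.7 and 15.8 CPM in Post control, 18.5, 11.5 and 9.98 CPM in Pre 2'-FL and 26.9, 18.1 and 14.00 CPM in Pre control. As counted it was not called (0.57), and corrected it was (1.39, adjusted p = 0.00331). Its transcript is the longest of the 34 at 6203 nt.

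Of the members outside both classes, Acot12, a cytosolic thioesterase of acetyl-CoA, had 103, 62.4 and 101 CPM in Post 2'-FL, 57.7, 81.3 and 83.7 CPM in Post control, 50.3, 22.9 and 20.3 CPM in Pre 2'-FL and 49.6, 36.02 and 35.4 CPM in Pre control. It rose by 1.50 ± 0.32 (SE; adjusted p = 0.00133), or 1.37 corrected, and the change was 2.11 without Pre 2'-FL replicate 1, the highest of its group. Eci2, an isomerase of both organelles, had 66.95, 56.6 and 87.2 CPM in Post 2'-FL, 42.02, 43.1 and 33.1 CPM in Post control, 41.2, 39.5 and 45.7 CPM in Pre 2'-FL and 44.1, 38.1 and 42.1 CPM in Pre control, and rose by 0.74 ± 0.19 (SE; adjusted p = 0.00458), or 0.35 corrected and not called. The acyl-CoA synthetases Acsl1, Acsl3 and Acsl4 and the carnitine acetyltransferase Crat had changes of -0.56, -0.37, 0.46 and -0.34, none called.

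**Figure D2:**
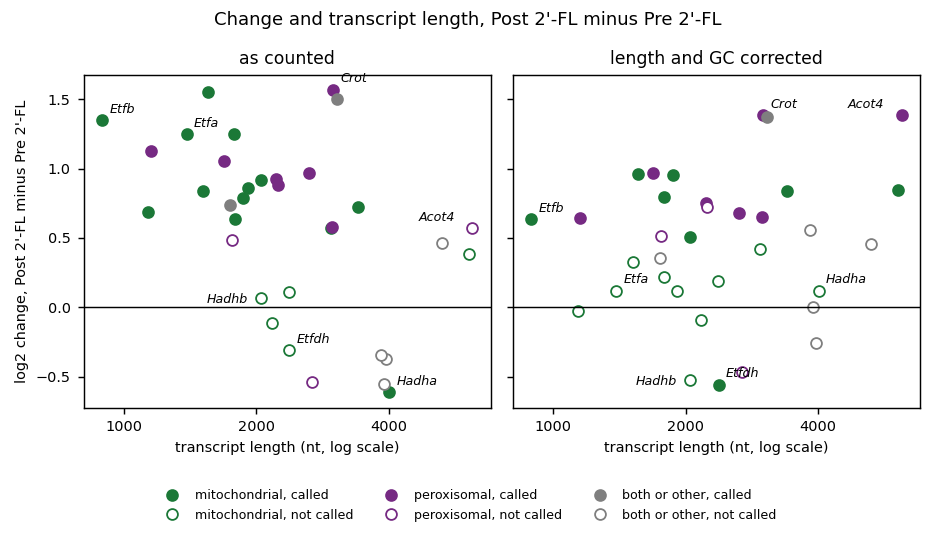
Log2 change of each gene in the 2'-FL arm, Post 2'-FL minus Pre 2'-FL (y axis), against transcript length in nt (x axis, log scale), as counted (left) and after the length and GC correction (right), with filled points called. Etfa and Hadha are called on the left and not on the right, and Acot4 is called on the right.

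After the correction, 15 members were higher and 1 lower in the 2'-FL arm, among 20.7% of genes higher and 14.9% lower, 35.6% in either direction. Of the 21 higher calls 13 remained, and Acadsb and Acot4 joined them. Mitochondrial higher calls were then 7 of 18 with a median of 0.27, and peroxisomal ones 7 of 10 with a median of 0.70, while the median of all genes moved to 0.01. The corrected peroxisomal count was 4 without Pre 2'-FL replicate 2 or Post 2'-FL replicate 3, and 4 to 8 over all libraries left out in turn, against 5 to 7 for mitochondrial members. The corrected count of all members was 10 without Post 2'-FL replicate 3. The median transcript length is 1982 nt for mitochondrial members, 2441 nt for peroxisomal members and 3037 nt over all genes tested. No test of the difference between the 2 classes was made.

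As counted, 14 of the 21 higher calls held whichever library was left out. The share of all genes called in those fits is not given here. Without Post 2'-FL replicate 3 the count was 14, and Acadl (0.54), Hadh (0.53), Acaa2 (0.19), Decr1 (0.43), Ehhadh (0.49), Acaa1b (0.43) and Pex11a (0.90) were not called. Hadh (0.56), Acaa2 (0.71), Decr1 (0.49), Ehhadh (0.49) and Acaa1b (0.90) were also lost without Pre 2'-FL replicate 2, Acaa2 (0.86) and Pex11a (0.74) without Pre 2'-FL replicate 1, Ehhadh (0.59) without Pre 2'-FL replicate 3 and Pex11a (0.70) without Post 2'-FL replicate 1. The libraries of the 2 groups did not overlap for 18 members that were higher and 2 that were lower (28.0% and 33.7% of all genes).

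In the control arm, 5 of 34 members rose after resection and 0 fell in Post control against Pre control libraries, where 4.42% of all genes were higher and 6.33% lower. They were Slc25a20 and Acadm of 18 mitochondrial members and Crot, Decr2 and Ehhadh of 10 peroxisomal members. Medians were 0.26 for mitochondrial members, 0.58 for peroxisomal members, 0.11 for the other 6 and -0.05 for all genes. The values per library are those given above for each gene. Crot changed by 1.09 ± 0.26 (SE; adjusted p = 0.0203), Decr2 by 0.72 ± 0.19 (SE; adjusted p = 0.0311), Ehhadh by 0.68 ± 0.20 (SE; adjusted p = 0.0431), Slc25a20 by 0.87 ± 0.25 (SE; adjusted p = 0.0401) and Acadm by 0.62 ± 0.18 (SE; adjusted p = 0.0399) on the log2 scale. In each of the 5, all Post control libraries exceeded all Pre control libraries. The enterocyte marker sum was 47240 to 64217 CPM in Post control, against 30011 to 47129 CPM in Pre control, with 0 of 12 markers called and a median of 0.40. The 4 Paneth cell markers, of which 4 were lower and 0 higher, summed to 5061 to 6610 CPM in Post control, against 16652 to 29740 CPM in Pre control. The part of these markers in the result was not tested.

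**Figure D3:**
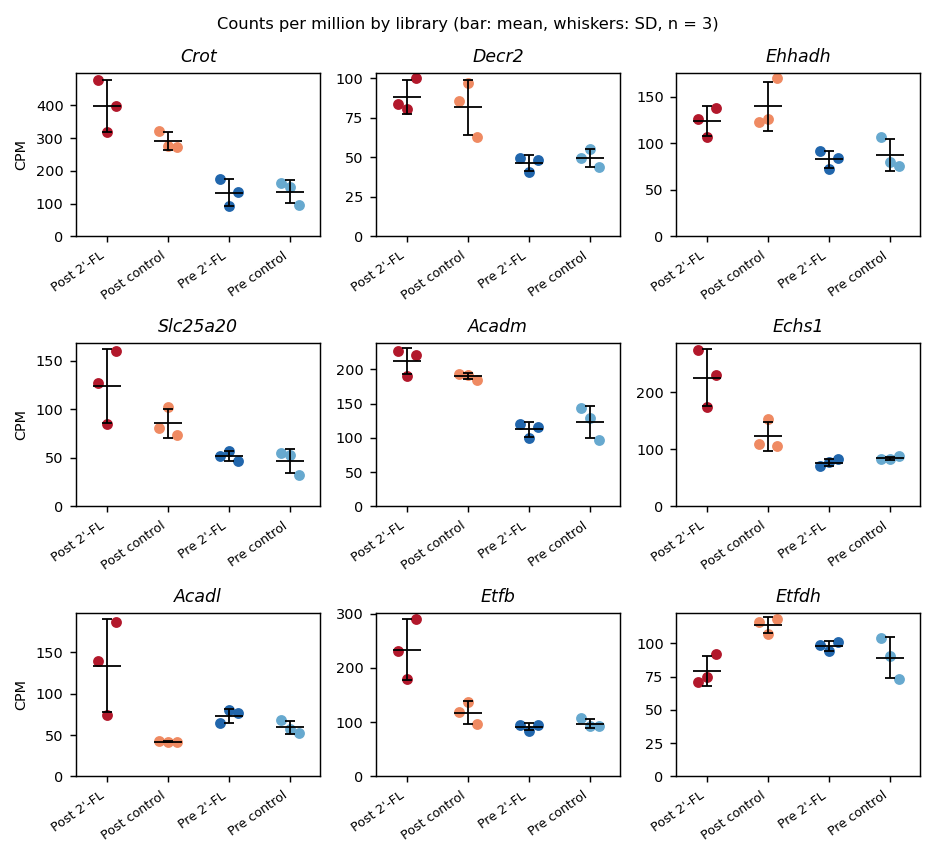
CPM of 9 genes in each library (points), with the group mean (bar) and SD (whiskers, n = 3), by group. Crot, Decr2, Ehhadh, Slc25a20 and Acadm have higher means in both Post groups than in both Pre groups, and the Post 2'-FL points of Etfdh lie below those of Post control and of Pre 2'-FL.

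All 5 were also called higher in Post 2'-FL against Pre 2'-FL, where 25.3% of all genes were higher. They made up 5 of 5 calls of the control arm and 5 of 21 higher calls of the 2'-FL arm. The 2 comparisons share no library, but both come from 1 fit with a shared spread. How many of all genes were called higher in both arms is not given here. In the order 2'-FL arm and control arm, the log2 changes were 1.57 and 1.09 for Crot, 0.93 and 0.72 for Decr2, 0.58 and 0.68 for Ehhadh, 1.25 and 0.87 for Slc25a20, and 0.92 and 0.62 for Acadm. Corrected values in the control arm were close to those counted, at 1.08 for Crot, 0.70 for Decr2, 0.73 for Ehhadh, 0.77 for Slc25a20 and 0.54 for Acadm. The first 4 were called, among 7.78% of genes higher and 5.21% lower, and Acadm was not (adjusted p = 0.0527). The corrected count was 0 without Pre control replicate 3 or Post control replicate 2, 1 without Post control replicate 1 and 2 without Pre control replicate 2 or Post control replicate 3.

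Acot12, Acot8, Echs1 and Hadh had changes above 0 in the control arm that did not pass the test. Acot12 had 0.88 ± 0.31 (SE; adjusted p = 0.0794), Acot8 0.52 ± 0.19 (SE; adjusted p = 0.0838), Echs1 0.54 ± 0.20 (SE; adjusted p = 0.0916) and Hadh 0.48 ± 0.20 (SE; adjusted p = 0.133), each with no overlap between Post control and Pre control libraries. Acsl3, a long-chain acyl-CoA synthetase of lipid droplets and endoplasmic reticulum, had 13.6, 19.7 and 14.1 CPM in Post 2'-FL, 24.3, 44.4 and 32.1 CPM in Post control, 19.7, 25.6 and 16.2 CPM in Pre 2'-FL and 45.3, 27.4 and 19.8 CPM in Pre control, and a control arm change of 0.12 ± 0.30 (SE; adjusted p = 0.807) that turned to -0.11 without Pre control replicate 3 and to -0.12 without Post control replicate 2. The 29 members not called ranged from -0.49 to 0.88. Between the 2 groups 15 members did not overlap and were higher, and 2 were lower (17.3% and 17.5% of all genes).

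None of the 5 held without Pre control replicate 3, Post control replicate 1 or Post control replicate 2, where the count of higher members was 0. The share of all genes called in these fits is not given here. Crot had a change of 0.88, 1.01 and 1.12 in these 3 fits (adjusted p = 0.0887, 0.0739 and 0.0647). In the same 3 fits Decr2 had 0.63, 0.69 and 0.58, Slc25a20 0.67, 0.92 and 0.72, Acadm 0.48, 0.62 and 0.62, and Ehhadh 0.58, 0.77 and 0.75. Decr2 was also lost without Pre control replicate 1 or 2 (0.73 and 0.80), Slc25a20 without Pre control replicate 2 (0.98) or Pre 2'-FL replicate 3 (0.87), Acadm without Pre control replicate 2 (0.65), Pre 2'-FL replicate 2 or 3 or Post 2'-FL replicate 3 (0.62 each), and Ehhadh without Pre control replicate 2 (0.62), Post control replicate 3 (0.52), Pre 2'-FL replicate 2 or 3 or Post 2'-FL replicate 3 (0.68 each).

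**Figure D4:**
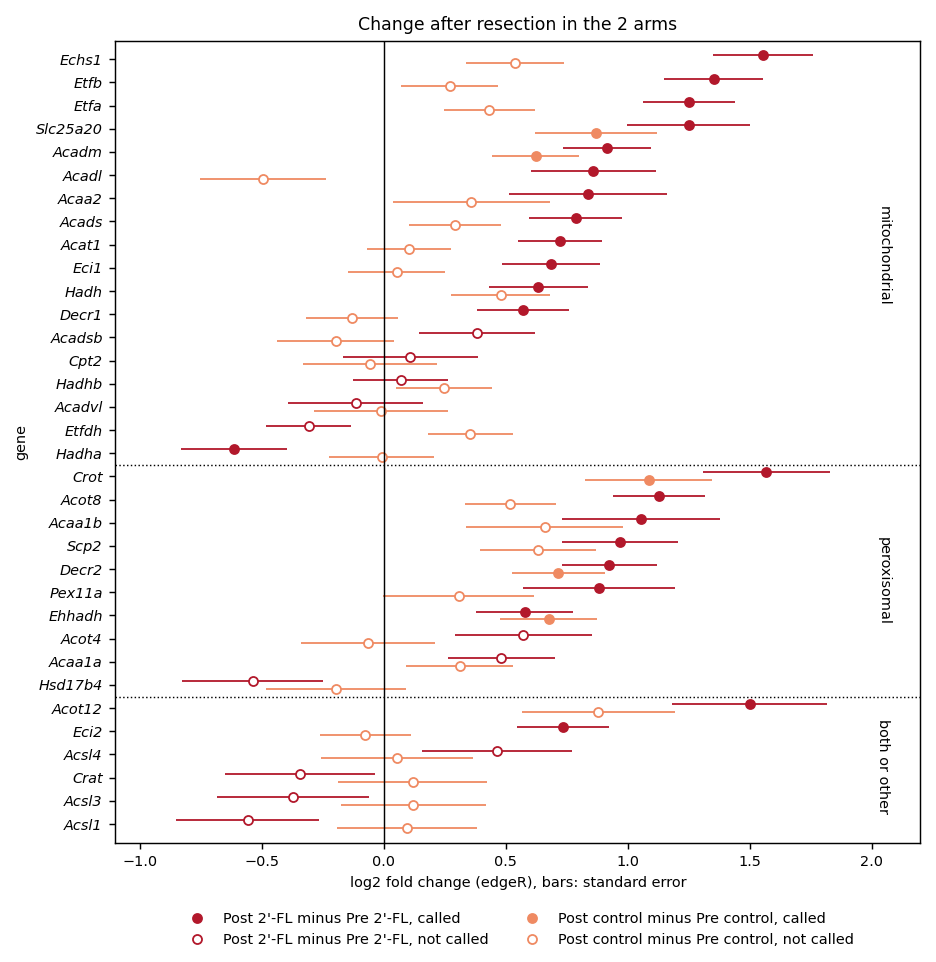
Log2 change after resection of each gene in the 2'-FL arm (Post 2'-FL minus Pre 2'-FL, red) and the control arm (Post control minus Pre control, orange), with SE bars and filled points for called changes. The 5 genes filled in both arms are Slc25a20, Acadm, Crot, Decr2 and Ehhadh, and Acadl has changes of opposite sign in the 2 arms.

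Summed over each class, the 18 mitochondrial genes had 3400.1, 2822 and 4106 CPM in Post 2'-FL, 2891, 2983 and 2679 CPM in Post control, 2345, 2057 and 2265 CPM in Pre 2'-FL and 2669.5, 2291 and 1994 CPM in Pre control. The 10 peroxisomal genes had 2598, 2376 and 3007 CPM in Post 2'-FL, 2566, 2548 and 2117 CPM in Post control, 1684, 1175 and 1538 CPM in Pre 2'-FL and 1938, 1684 and 1289 CPM in Pre control. Within each arm, every Post library was above every Pre library for both sums with TMM scaling, by a narrow margin for the mitochondrial sum of the control arm. With plain library totals the mitochondrial sum was 2722, 2706 and 3597 CPM in Post 2'-FL, against 2746, 2271 and 2364 CPM in Pre 2'-FL, so these groups overlapped. The peroxisomal sum was then 2079.9, 2278 and 2634 CPM in Post 2'-FL, against 1972, 1298 and 1605 CPM in Pre 2'-FL, with no overlap. The mitochondrial sum over the peroxisomal sum was 1.31, 1.19 and 1.37 in Post 2'-FL, 1.13, 1.17 and 1.27 in Post control, 1.39, 1.75 and 1.47 in Pre 2'-FL and 1.38, 1.36 and 1.55 in Pre control, and the Post ratio was below the Pre ratio in each arm without overlap. Without Scp2 and Hadh, the most abundant members, the ratio was 2.34, 2.13 and 2.34 in Post 2'-FL, 1.77, 2.06 and 1.77 in Post control, 2.197, 2.78 and 2.395 in Pre 2'-FL and 2.09, 2.13 and 2.47 in Pre control. The 2'-FL arm then overlapped, while the control arm did not.

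**Figure D5:**
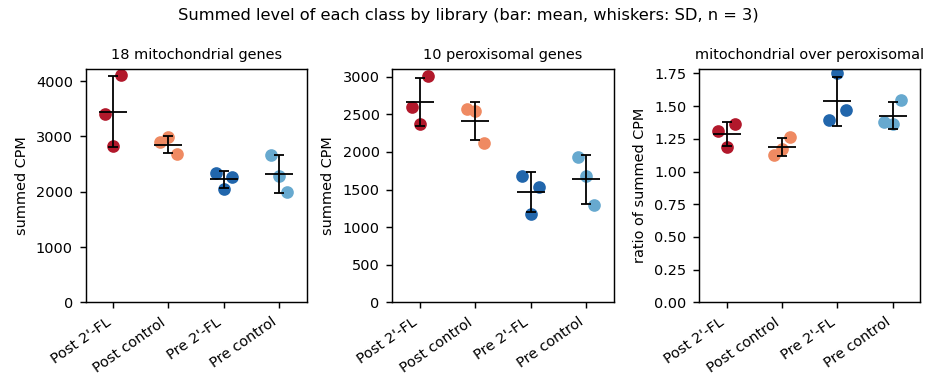
Summed CPM of the 18 mitochondrial genes (left) and 10 peroxisomal genes (middle) and the ratio of the sums (right), per library (points), with the group mean (bar) and SD (whiskers, n = 3). With the TMM scaling plotted, Post sums are above Pre sums in both arms (with plain library totals the mitochondrial sums of the 2'-FL arm overlap), and within each arm the ratio is lower in Post than in Pre libraries.

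After resection, 9 of 34 members were higher and 2 lower in Post 2'-FL against Post control libraries, where 18.8% of all genes were higher and 19.3% lower. Mitochondrial members gave 7 higher (Acadl, Acadsb, Echs1, Acat1, Decr1, Etfa and Etfb) and 1 lower (Etfdh) of 18. Peroxisomal members gave 1 higher (Acot8) of 10, and of the other 6 Eci2 was higher and Acsl3 lower. Medians were 0.45 for mitochondrial members, 0.15 for peroxisomal members, -0.20 for the other 6 and 0.02 for all genes. The enterocyte marker sum was 67957 to 71966 CPM in Post 2'-FL, against 47240 to 64217 CPM in Post control, of which Fabp2 gave 42429.7, 33590.3 and 34874 CPM in Post 2'-FL and 20583, 23517 and 13475 CPM in Post control. Most single enterocyte markers had changes below 0, 8 of 12, with 1 called higher and 4 lower and a median of -0.28 (0 higher, 3 lower and -0.50 corrected). The Paneth cell markers were called higher, 4 of 4, with a median of 1.57 (1 of 4 and 0.41 corrected), and summed to 10538 to 26233 CPM in Post 2'-FL, against 5061 to 6610 CPM in Post control. The smooth muscle markers were called higher for 3 of 7 and lower for 0, as counted and corrected. Their sum was 1308 to 1557 CPM in Post 2'-FL, against 517 to 805.0 CPM in Post control. Of this sum Tagln gave 754, 474 and 503 CPM in Post 2'-FL and 119, 203 and 143 CPM in Post control. Another of the 7, Myh11, had 30.1, 61.4 and 45.7 CPM in Post 2'-FL and 51.2, 55.3 and 127 CPM in Post control. The part of these markers in the result was not tested.

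Acadl changed most, with 139, 74.9 and 187 CPM in Post 2'-FL, 43.2, 41.5 and 41.8 CPM in Post control, 64.04, 79.9 and 77.1 CPM in Pre 2'-FL and 68.3, 57.8 and 52.1 CPM in Pre control. The Post control libraries were the lowest 3 of the 12 and lay within a narrow range, whereas the Post 2'-FL libraries spread widely. The log2 change between the Post groups was 1.66 ± 0.26 (SE; adjusted p = 0.00081), or 1.05 corrected (adjusted p = 0.0106). Acadsb had 29.9, 14.00 and 19.9 CPM in Post 2'-FL, 11.9, 11.7 and 12.7 CPM in Post control, 14.95, 18.7 and 15.1 CPM in Pre 2'-FL and 13.2, 14.4 and 14.00 CPM in Pre control, and was called at 0.81 as counted and 0.97 corrected. Acat1 was called at 0.68 as counted and 0.66 corrected. Decr1 was called at 0.53 as counted and not at 0.33 corrected. Eci2 was called at 0.84 ± 0.19 (SE; adjusted p = 0.0039), or 0.52 corrected.

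The electron transfer flavoprotein genes and Echs1 gave calls that did not outlast the correction. Etfb had 0.99 ± 0.20 (SE; adjusted p = 0.00212) as counted and 0.40 corrected, and Echs1 0.88 ± 0.20 (SE; adjusted p = 0.00393) as counted and 0.40 corrected. Etfa had 0.75 ± 0.19 (SE; adjusted p = 0.00649) as counted, and the corrected change turned to -0.15. The lower calls were kept. Etfdh had -0.52 ± 0.17 (SE; adjusted p = 0.029) as counted and -0.78 corrected, and Acsl3 -1.08 ± 0.31 (SE; adjusted p = 0.0139) as counted and -1.13 corrected. In both genes all Post 2'-FL libraries were below all Post control libraries.

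Of the peroxisomal members Acot8 alone was called between the Post groups. It had 0.52 ± 0.19 (SE; adjusted p = 0.0397) as counted and 0.14 corrected, which was not called. Hsd17b4 had -0.62 ± 0.29 (SE; adjusted p = 0.104), Crot 0.46 ± 0.26 (SE; adjusted p = 0.172) and Pex11a 0.54 ± 0.31 (SE; adjusted p = 0.181), none called. Corrected, 4 members were higher and 2 lower (9.90% and 11.5% of all genes), and no peroxisomal member was called. The corrected count of higher members was 2 without Post control replicate 3 or Post 2'-FL replicate 1, each with 1 lower, and 7 without Post 2'-FL replicate 2; 1 was lower without Post control replicate 2. The libraries did not overlap for 10 members that were higher and 5 that were lower (25.2% and 25.4% of all genes).

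Of the 9 higher calls, 6 held without any 1 library (Acadl, Echs1, Acat1, Etfa, Etfb and Eci2). Acadsb was lost without Post 2'-FL replicate 1 (0.48). Decr1 was lost without Post 2'-FL replicate 3 (0.39), Post control replicate 1 (0.58) or 3 (0.48), Pre control replicate 2 or Pre 2'-FL replicate 3 (0.53 each). Acot8 was lost without Post 2'-FL replicate 3 (0.32), Post control replicate 1 (0.59), 2 (0.57) or 3 (0.52), Pre control replicate 2 or Pre 2'-FL replicate 3 (0.52 each). Acsl3 was lost without Post 2'-FL replicate 1 (-0.98) or Post control replicate 2 (-0.83). Etfdh was lost without Post 2'-FL replicate 1 (-0.45) or 2 (-0.48), Post control replicate 1 (-0.44) or 3 (-0.43), Pre control replicate 1 or Pre 2'-FL replicate 1 (-0.46 each). Without Post 2'-FL replicate 3, 7 members were lower, and without Post 2'-FL replicate 1 none was. The share of all genes called without these libraries is not given here.

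Between the arms before resection, no member was higher or lower in Pre 2'-FL against Pre control libraries, where 0% of all genes were higher and 0.0152% lower by edgeR's quasi-likelihood test. No member reached an unadjusted p under 0.05 in edgeR, and 1 did in DESeq2, which called none. With the correction 0.0158% of genes were lower, and no member was called, with 2 members at an unadjusted p under 0.05. The libraries did not overlap for 1 member that was higher and 2 that were lower (4.30% and 4.94% of all genes). The medians were -0.08 for mitochondrial members, -0.12 for peroxisomal members, -0.18 for the other 6 and 0.02 for all genes. The smallest p were those of Eci1, Acot4 and Acsl3, with changes of Acot4 at -0.55 ± 0.28 (SE; adjusted p = 1), Acsl3 at -0.59 ± 0.30 (SE; adjusted p = 1) and Eci1 at -0.41 ± 0.20 (SE; adjusted p = 1). Eci1 had 74.1, 83.7 and 104 CPM in Post 2'-FL, 85.4, 81.4 and 56.9 CPM in Post control, 57.9, 53.5 and 50.9 CPM in Pre 2'-FL and 81.8, 73.2 and 60.3 CPM in Pre control. Cpt2 had -0.38 ± 0.28 (SE; adjusted p = 1), Acadl 0.31 ± 0.26 (SE; adjusted p = 1), Acadsb 0.23 ± 0.24 (SE; adjusted p = 1), Acot12 -0.36 ± 0.31 (SE; adjusted p = 1), Acaa1a -0.23 ± 0.22 (SE; adjusted p = 1), Hsd17b4 -0.28 ± 0.29 (SE; adjusted p = 1) and Acaa1b -0.21 ± 0.32 (SE; adjusted p = 1). All 10 peroxisomal members had a change below 0, the lowest -0.55 and the highest -0.03. Adipose markers summed to 478 CPM in Pre 2'-FL replicate 1, against 89.4 to 151 CPM in the other 11 libraries, and the brown fat gene Ucp1 was at 0 in all.

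Whether the change after resection differed between the arms was tested by the interaction, the log2 change of the 2'-FL arm minus that of the control arm. It was higher for 4 members, all mitochondrial, and lower for 0, where 7.47% of all genes were higher and 8.03% lower. Etfb had 1.08 ± 0.28 (SE; adjusted p = 0.0241), Acadl 1.35 ± 0.36 (SE; adjusted p = 0.0264), Echs1 1.02 ± 0.28 (SE; adjusted p = 0.0295) and Etfa 0.82 ± 0.26 (SE; adjusted p = 0.0486). Eci2 followed at 0.81 ± 0.27 (SE; adjusted p = 0.052), not called. For Acadl the arm changes were 0.86 in the 2'-FL arm and -0.49 in the control arm. Medians were 0.49 for mitochondrial members, 0.37 for peroxisomal members and -0.03 for all genes. Corrected, 0 of 34 members and 0 of 12654 genes were called, while 8 members had an unadjusted p under 0.05, and the change of Etfa turned to -0.06. The 5 genes called in both arms had interactions of 0.48 ± 0.36 (SE; adjusted p = 0.373) for Crot, 0.21 ± 0.27 (SE; adjusted p = 0.625) for Decr2, -0.10 ± 0.28 (SE; adjusted p = 0.839) for Ehhadh, 0.38 ± 0.35 (SE; adjusted p = 0.482) for Slc25a20 and 0.29 ± 0.25 (SE; adjusted p = 0.442) for Acadm, none called.

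None of the 4 interaction calls held without Post control replicate 3 or Post 2'-FL replicate 3, where the count was 0. The changes without these were 1.02 and 0.90 for Etfb, 1.41 and 1.03 for Acadl, 0.98 and 1.00 for Echs1, and 0.82 and 0.79 for Etfa. The share of all genes called without these 2 libraries is not given here. Etfb was also lost without Pre 2'-FL replicate 2 (1.03), Acadl without 3 further libraries (Pre control replicate 2, Pre 2'-FL replicate 1 and Post 2'-FL replicate 1; 1.37, 1.32 and 1.32), and Echs1 and Etfa without most others (adjusted p of 0.0502 to 0.0679 and of 0.0602 to 0.106).

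Other genes of the pathway, from lists outside the 34, were set beside these results, and those named have the smallest p among the called genes of their list. Their changes are as counted unless marked as corrected, and most corrected values of single genes are not given here. In the 2'-FL arm, where 25.3% of all genes were higher and 30.0% lower (20.7% and 14.9% corrected), other mitochondrial oxidation genes gave 10 higher and 3 lower of 28 tested (6 and 4 corrected). The corrected share of higher calls in this list is near that of all genes. Cpt1a, the outer-membrane entry step of the carnitine shuttle, was at 28.7 ± 10.5 CPM in Post 2'-FL, against 88.5 ± 10.3 CPM in Pre 2'-FL (mean ± SD, n = 3 each), and fell by 1.63 on the log2 scale, with a corrected change of -0.82. Nudt8 (1.83), a coenzyme A hydrolase, and Pccb (1.49), a subunit of propionyl-CoA carboxylase, rose. Genes listed as other peroxisomal genes, not all of them enzymes of lipids, gave 13 higher and 4 lower of 31 (12 and 4 corrected). Named from this list are Mgst1 (1.74, corrected 0.51 and not called) and the coenzyme A hydrolases Nudt7 (1.93) and Nudt19 (1.40).

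Peroxisome biogenesis genes gave 8 higher and 1 lower of 15 in the 2'-FL arm (6 and 0 corrected), beside the 25.3% and 30.0% of all genes (20.7% and 14.9% corrected), among them Pex7 (1.54), the receptor for a class of imported enzymes, Pex2 (1.61) and Pex13 (1.17). Genes of mitochondrial import, channels and carriers outside oxidation gave 11 higher and 3 lower of 18 (8 and 2 corrected), among them Tomm20 (1.91), Tomm22 (1.38) and Timm23 (1.49). The median of this list was 0.66 as counted and 0.13 corrected, with 14 of 18 changes above 0 as counted and 10 corrected. Other acyl-CoA synthetases, thioesterases and binding proteins gave 4 higher and 1 lower of 10 (5 and 1 corrected). Dbi, the acyl-CoA binding protein, was at 1681 ± 495 CPM in Post 2'-FL, against 345 ± 44.6 CPM in Pre 2'-FL, with a change of 2.28, or 0.88 corrected. Acbd4 (1.56) and Acot7 (1.32) rose too.

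Regulators of the pathway gave 3 higher and 11 lower of 23 in the 2'-FL arm as counted, and 4 higher and 3 lower corrected, beside 25.3% and 30.0% of all genes as counted and 20.7% and 14.9% corrected. The corrected shares are near those of all genes. Acaca, whose product makes the malonyl-CoA that inhibits Cpt1, had a change of -2.40 (corrected -1.11), Lpin1, a phosphatidate phosphatase and coactivator, -3.08 (corrected -2.11), and the coactivator Ncoa1 -1.67 (corrected -0.54, not called). In the control arm, where 4.42% of all genes were higher and 6.33% lower (7.78% and 5.21% corrected), regulators gave 0 higher and 4 lower (0 and 3 corrected), among them Prkaa2 (-1.03), Ncoa1 (-1.03) and Ppara (-1.41), which encodes PPARα and was at 25.7 ± 5.54 CPM in Post control, against 68.5 ± 31.7 CPM in Pre control. The remaining lists gave few calls there. Other mitochondrial genes had 2 higher and 2 lower (3 and 1 corrected), with Slc22a5, the carnitine importer of the plasma membrane, at 1.24, Acss1 at -1.08 and Cpt1a at -0.96. Other peroxisomal genes had 1 higher (Phyh, 0.71) and 1 lower (Slc25a17, -0.86). Corrected, they had 0 higher and 1 lower, and Phyh was not called. Biogenesis genes had 0 and 0 (1 and 0 corrected), acyl-CoA genes 2 and 0 in both fits (as counted Acbd4 at 0.87 and Dbi at 1.02) and mitochondrial content genes 0 and 1 in both fits (as counted Slc25a4 at -0.92).

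Between the Post groups, where 18.8% of all genes were higher and 19.3% lower (9.90% and 11.5% corrected), mitochondrial content genes gave 10 higher and 0 lower of 18 in Post 2'-FL against Post control (6 and 2 corrected), among them Phb (1.30), Tomm20 (1.56) and Slc25a4 (1.18). Other mitochondrial oxidation genes gave 7 and 5 of 28 (2 and 1 corrected), among them Hsd17b10 (1.02), Acot13 (1.33) and Pccb (1.05). Other peroxisomal genes gave 6 and 5 of 31 (4 and 5 corrected), among them Nudt19 (1.28), Acox3 (-1.21) and Nudt7 (1.14). Biogenesis genes gave 4 and 1 (1 and 0 corrected), among them Pex7 (0.95), Pex2 (0.89) and Pex3 (0.81). Acyl-CoA genes gave 2 and 1 (0 and 0 corrected), namely Dbi (1.31), Acot7 (0.52) and Acss2 (-0.65). As counted, the shares of the 2 oxidation lists in either direction are near those of all genes. Regulators gave 2 and 8 (1 and 3 corrected), among them Rxra (-1.36), Tfam (1.01) and Ppard (-1.62).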

How the data were processed

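Bulk RNA-seq of mouse small bowel (12 libraries, 4 groups of 3) was used. The values are estimated counts per gene that the authors deposited, 1 file per library. They hold fractions and were rounded to whole numbers here. Per the submitters' processing notes the build was mm10 and DESeq was used. The aligner, counter, annotation and strand setting are not given in the sources used here. Of 36186 entries, 486 had a place suffix. Entries were summed per Entrez gene, which left 35791 genes.

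One fit of all 12 libraries with a mean per group (edgeR 4.0.16 in R 4.3.3, quasi-likelihood F test, TMM scaling, filterByExpr with a minimum count of 10) tested 13154 genes, leaving 8 residual degrees of freedom; the biological coefficient of variation was 0.238. Benjamini-Hochberg adjustment ran over all genes tested, two-sided, called at 0.05. CPM values use TMM-scaled library sizes. The length and GC correction fitted splines with 4 degrees of freedom to each library's log2 CPM (prior count 2) over 12654 genes with a transcript length, as offsets. DESeq2 1.42.0 was an alternative. The fits were also run on simulated data with few or no changed genes, and the outcome is not given here. That run cannot show how the fits hold where most genes change.

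The members and gene lists were chosen with earlier results of these data known. Named genes are, per comparison, the 4 mitochondrial, 4 peroxisomal and 2 other members with the smallest p, the 5 smallest in the interaction, and, per other list, up to 3 called genes with the smallest p. No replicate pair of a group agreed within sampling noise (chi-square per degree of freedom of 14.3 to 90.0).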

Additional observations from a re-analysis of the deposited data

Results flagged for a closer look

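By the interaction term of edgeR's quasi-likelihood test, 4 of 34 members were called higher and 0 lower. Among all genes tested, 7.47% were higher and 8.03% lower. The count of members was 0 without Post control replicate 3 or Post 2'-FL replicate 3. The log2 change of the 2'-FL arm minus that of the control arm was 1.35 for Acadl, 1.02 for Echs1, 0.82 for Etfa and 1.08 for Etfb. After the length and GC correction the values were 0.78, 0.55, -0.06 and 0.46 in the same order, and none was called. The transcripts of these genes are 1916, 1557, 1392 and 893 nt long, each under the median of 3037 nt over all genes tested. The median of the 18 mitochondrial members, to which all 4 belong, is also under it, at 1982 nt. The part of length in the lost calls was not tested.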

How the results depend on the processing

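Leaving out 1 library at a time gave 14 to 23 higher and 0 to 3 lower members in the 2'-FL arm, 0 to 6 and 0 to 0 in the control arm, 7 to 10 and 0 to 7 between the Post groups, 0 to 0 and 0 to 0 between the Pre groups, and 0 to 7 and 0 to 0 in the interaction; where a group was left with 2 libraries, the spread was shared across groups. With DESeq2 size factors or only the groups compared, the count of lower members in the 2'-FL arm was 0, and with only the groups compared it was 1 between the Post groups. With the length and GC offsets the count of higher members was 4 between the Post groups and 0 in the interaction, and the DESeq2 Wald test gave 7 in the interaction. Etfa turned to -0.15 between the Post groups and -0.06 in the interaction with these offsets, with or without the replicate block, and Acsl3 in the control arm turned to -0.11 without Pre control replicate 3, within a range of -0.12 to 0.52 when 1 library was left out. The cause of these shifts was not tested. For fits with 1 library left out, as counted or corrected, the share of all genes called is not given here. Member counts from those fits therefore cannot be set against it. The interaction takes in all groups, so it has no fit of only the groups compared.

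Correlations of deviations between groups were -0.23 to 0.42 for same-numbered libraries and -0.36 to 0.31 for differently numbered ones. With 3 libraries per group these values cannot show whether libraries of the same number were paired. With the replicate block, higher and lower members were 20 and 1 in the 2'-FL arm, 4 and 0 in the control arm, 7 and 2 between the Post groups, 0 and 0 between the Pre groups and 3 and 0 in the interaction. Block and offsets together gave 3 higher members in the control arm, 4 between the Post groups and 0 in the interaction. With offsets and 1 library left out, an alternative chosen after seeing the data, higher members were 10 to 17 and lower ones 0 to 3 in the 2'-FL arm, 0 to 5 and 0 to 1 in the control arm, 2 to 7 and 1 to 3 between the Post groups, 0 and 0 between the Pre groups and 0 to 2 and 0 in the interaction. Of 858 single values under the alternatives, 754 kept direction and side of the threshold. Plain library totals moved the mean peroxisomal sum in Post 2'-FL to 2331 CPM and the mean mitochondrial sum in Pre 2'-FL to 2460 CPM. The lowest library total, 5663192 counts, limits the precision of the scarce members, such as Acsl4, and counts cover counting error only.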

Other observations

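Post 2'-FL replicate 3 was the highest library of its group for 24 of 34 members and the highest of all 12 libraries for 16. Pre control replicate 1 was the highest of its group for 26 members and Pre 2'-FL replicate 1 for 19. In the Post control group no library held such a share, with 11, 15 and 8 members highest in replicates 1, 2 and 3. How often each library was the highest over all genes is not given here.

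Paneth cell markers summed to 10538 to 26233 CPM in Post 2'-FL, 5061 to 6610 CPM in Post control, 9868 to 31688 CPM in Pre 2'-FL and 16652 to 29740 CPM in Pre control, with no call in Post 2'-FL against Pre 2'-FL as counted and 4 of 4 lower corrected. Macrophage markers summed to 8.89 to 11.1 CPM in Post 2'-FL, 12.4 to 31.5 CPM in Post control, 41.4 to 82.4 CPM in Pre 2'-FL and 42.2 to 79.6 CPM in Pre control.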
